A study of Mus musculus with 12 samples.

Results

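The mitochondrially encoded genes were taken as the rows of the gene table whose name begins with mt-. They were 13 of 34745 genes, and all 13 encode proteins. The GENCODE M21 annotation of the mouse genome GRCm38 places 37 genes on the mitochondrial chromosome (MT), of which 13 encode proteins, 22 encode tRNAs and 2 encode rRNAs. All the protein genes were therefore measured, at the same coordinates as in that annotation, and the tRNA and rRNA genes were not analysed here. Of the 13 members, 7 encode subunits of complex I (mt-Nd1, mt-Nd2, mt-Nd3, mt-Nd4l, mt-Nd4, mt-Nd5 and mt-Nd6), 1 encodes cytochrome b of complex III (mt-Cytb), 3 encode subunits of complex IV (mt-Co1, mt-Co2 and mt-Co3) and 2 encode subunits of complex V (mt-Atp8 and mt-Atp6). All 13 passed the filter on low counts in each of the 6 comparisons.

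Mitochondria keep a small circular genome whose genes are transcribed from both strands into long RNAs by the mitochondrial RNA polymerase Polrmt, with the DNA-binding protein Tfam at the promoters. The long RNAs are cut, mostly at the tRNAs that stand between the genes, into messenger RNAs for core subunits of the respiratory chain and the ATP synthase. The other subunits of these complexes, and every protein that copies, reads and translates the mitochondrial genome, are encoded in the nucleus. In bone marrow, red cells discard their mitochondria as they mature, and mature neutrophils rely mainly on glycolysis.

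RNA was sequenced from femoral bone marrow cells of 12 male mice of the outbred ICR strain, 3 in each of 4 groups, with 1 library per mouse. The age of the mice is not given in the sources used here. The normal group was given saline only. The model, QJSB and leucogen groups shared the same injections of cyclophosphamide, an alkylating agent that is toxic to dividing cells, on day 5 through day 7, each day at 80 mg/kg. During the same 1 week the model group was given saline by mouth, the QJSB group 3 g/kg per day of the Qi-Jing-Sheng-Bai granule, a herbal formula used against low leucocyte counts, and the leucogen group 20 mg/kg daily of leucogen, which is prescribed for the same purpose. No group received a drug without cyclophosphamide, so the effect of QJSB or leucogen on healthy marrow was not measured. In the count table the QJSB columns bear the heading Stilbene, those of leucogen Positive and those of normal Blank, a reading of the headings that rests in part on values.

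Library totals ranged from 11172547 to 18545198 counts, and the 13 genes together held from 210127 to 388267 counts per library, so that counting error was small beside the spread between mice. Within groups, the 12 pairs of libraries all differed beyond sampling noise (chi-square over degrees of freedom, 10.2 to 99.6). The 14 erythroid markers summed to 20498 to 24165 scaled CPM (counts scaled to a common library total after TMM normalization of all 12 libraries) in normal and to 362 to 2195 in the other groups. The 13 late neutrophil markers summed to 23036 to 25715 in normal and 55295 to 70852 in leucogen. In model they summed to 8117, 25640 and 15942, and in QJSB to 9565, 44362 and 40984, in the order of replicates. QJSB 1 thus stood apart from the other QJSB libraries in these markers. The 6 promyelocyte markers summed to 751 to 964 in normal, 6664 to 9601 in model, 8239 to 9062 in QJSB and 3493 to 4615 in leucogen. The 8 mature B cell markers reached 972 to 1017 in normal and at most 58.7 elsewhere. None of the erythroid, late neutrophil or promyelocyte markers was at 0 in a group. The marrow of the groups thus differed in its cells, and in such bulk samples fewer cells of a type and less RNA per cell cannot be told apart. The part of these differences in the results on mitochondrial genes was not tested.

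The sequences that bear on what a count of these genes can mean are shown first, from the GENCODE M21 transcripts and GRCm38, written 5′ to 3′ in the sense of the gene. Of the 13 genes, 12 lie on the plus strand and are read from the heavy-strand promoter, while mt-Nd6 (MT:13552-14070) is the one protein gene on the minus strand, read from the light-strand promoter. mt-Nd5 (MT:11742-13565) and mt-Nd6 meet tail to tail, and their last 14 bases are complementary to each other (capitals in the ends of both genes). mt-Nd6 also differs from the others in its bases. It is 43.7% T and 6.0% C in its coding strand, against 27.4% to 32.8% T and 22.1% to 30.0% C in the 12 plus-strand genes, while its GC content of 34.1% lies within their range of 31.9% to 41.1%.
mt-Nd5, last 60 bases, MT:13506-13565, plus strand: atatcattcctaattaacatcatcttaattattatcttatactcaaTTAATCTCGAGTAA
mt-Nd6, last 60 bases, MT:13552-13611, minus strand: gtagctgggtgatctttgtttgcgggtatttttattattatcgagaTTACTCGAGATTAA
mt-Nd6, first 60 bases with the start codon in capitals, MT:14011-14070, minus strand: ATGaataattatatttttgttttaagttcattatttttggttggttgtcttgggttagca

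Genes on the same strand overlap as well, so that some reads cannot be given to 1 gene. mt-Atp8 (MT:7766-7969) shares 43 of its 204 bases with mt-Atp6 (MT:7927-8607), and mt-Nd4l (MT:9877-10173) shares 7 bases with mt-Nd4 (MT:10167-11544). Capitals mark the shared bases.
mt-Atp8, whole gene, MT:7766-7969, plus strand: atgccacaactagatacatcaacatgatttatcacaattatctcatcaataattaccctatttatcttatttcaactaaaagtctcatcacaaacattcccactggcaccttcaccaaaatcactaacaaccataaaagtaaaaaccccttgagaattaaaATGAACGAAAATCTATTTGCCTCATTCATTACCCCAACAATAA
mt-Nd4l, last 60 bases, MT:10114-10173, plus strand: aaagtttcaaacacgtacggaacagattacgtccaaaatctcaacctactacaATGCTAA

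Reads can also be split between a mitochondrial gene and a copy of it in the nuclear genome. A stretch of chromosome 1, chr1:24611535-24616197 on the minus strand, holds 7 annotated copies of mitochondrial genes in the order of the mitochondrial genome. For 6 of them, Gm28439 (a copy of mt-Nd4), Gm10222 (mt-Nd4l), Gm28438 (mt-Nd3), Gm28437 (mt-Co3), Gm10925 (mt-Atp6) and Gm28661 (mt-Co2), every aligned base is identical to the mitochondrial gene. The seventh, Gm29216, matches mt-Co1 at 482 of 483 aligned bases. The alignment leaves out the first bases of this copy of 492 bases, and most of the differing bases (capitals) lie there. A read that falls inside an identical stretch has 2 equally good places in the genome.
mt-Atp6, first 60 bases, identical in Gm10925, start codon in capitals, MT:7927-7986, plus strand: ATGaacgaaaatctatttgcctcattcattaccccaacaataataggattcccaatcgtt
mt-Co1, MT:6381-6441, plus strand: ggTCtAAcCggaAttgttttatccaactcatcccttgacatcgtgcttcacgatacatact
Gm29216, chr1:24616137-24616197, minus strand: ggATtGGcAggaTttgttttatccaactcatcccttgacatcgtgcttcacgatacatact

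The copies took 4.8 counts per 100 counts of mt-Nd4, 10.1 per 100 of mt-Nd4l, 9.0 per 100 of mt-Nd3, 7.3 per 100 of mt-Co3, 6.9 per 100 of mt-Co2 and 1.7 per 100 of mt-Co1. Gm10925 stood apart with 50.3 counts per 100 of mt-Atp6 (range over the 12 libraries, 45.7 to 56.7). mt-Atp6 encodes the proton channel subunit of the ATP synthase. Reads that match both places equally well may also have been left out of both genes. The error in the level of mt-Atp6 is therefore not known from these counts and may be larger. Adding the counts of the copies to their mitochondrial genes changed which members were called in 0 of the 6 comparisons. This sum could hardly move a fold change. The copies added few counts to most genes and a similar fraction of mt-Atp6 in every library. It also cannot bring back reads left out of both genes. The counts of the copies have not been traced to either genome here.

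**Figure D1:**
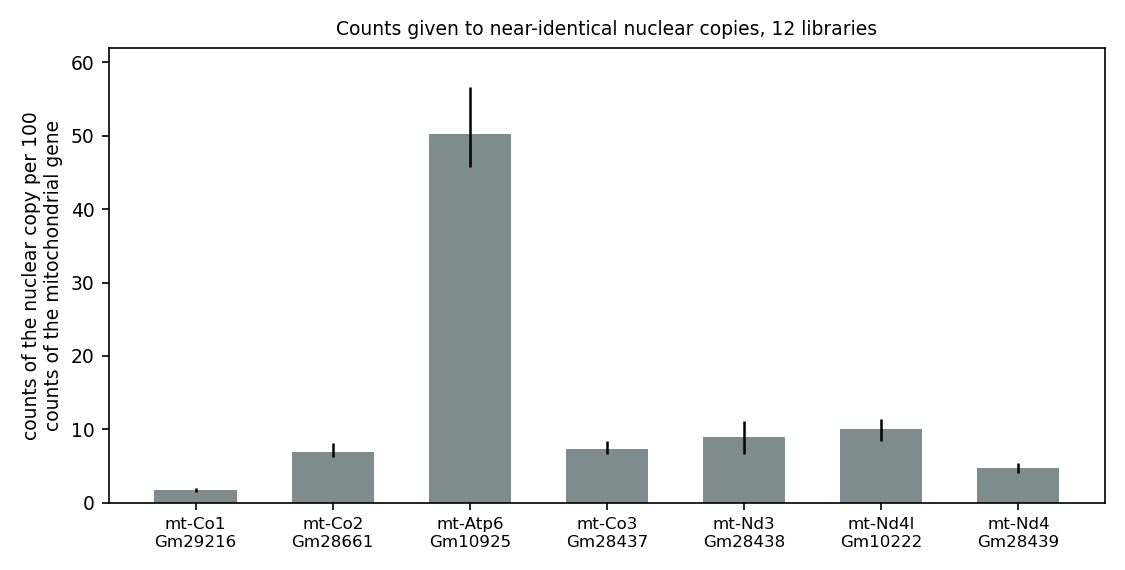
Counts given to the 7 nuclear copies per 100 counts of the mitochondrial gene each one matches. Bars are means over the 12 libraries and lines run from the lowest to the highest library. The copy of mt-Atp6 stands at 50.3, and the other 6 lie between 1.7 and 10.1.

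Per unit of length the 13 genes spanned a wide range, and mt-Co1, the catalytic subunit of cytochrome c oxidase, stood highest in every group. The level per length is given as FPKM (fragments scaled for gene length and library total), as mean ± SD over the 3 normal mice. mt-Co1 was at 5217 ± 214, mt-Co3 at 2948 ± 164, mt-Nd4l at 1227 ± 98.3, mt-Atp8 at 1197 ± 87.2, mt-Co2 at 1001 ± 76.9 and mt-Nd4 at 942 ± 109. mt-Cytb was at 714 ± 60.6, mt-Nd1 at 641 ± 95.4, mt-Nd6 at 460 ± 29.0, mt-Nd2 at 407 ± 57.1, mt-Nd5 at 403 ± 32.0, mt-Atp6 at 250 ± 25.4 and mt-Nd3 at 130 ± 24.1. Neighbours in this order whose libraries overlapped were mt-Nd4l with mt-Atp8, mt-Co2 with mt-Nd4, mt-Cytb with mt-Nd1, mt-Nd6 with mt-Nd2, and mt-Nd2 with mt-Nd5, and the libraries of the other neighbours did not overlap. mt-Co1 and mt-Co3 led and mt-Nd3 came last in all 4 groups, while mt-Nd6 was the ninth in normal and leucogen and the twelfth in model and QJSB. In FPKM, mt-Nd6 was at 336 ± 104 in model, 269 ± 32.1 in QJSB and 601 ± 115 in leucogen (SD, n = 3). The order of the genes is one of counted reads. The aligned part of a nuclear copy covers 98.3% of mt-Nd3 and 99.6% of mt-Atp6, but also 99.9% of mt-Co3, and 31.3% of mt-Co1. How reads shared with a copy were counted is not given, so the order of the RNAs themselves may differ.

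**Figure D2:**
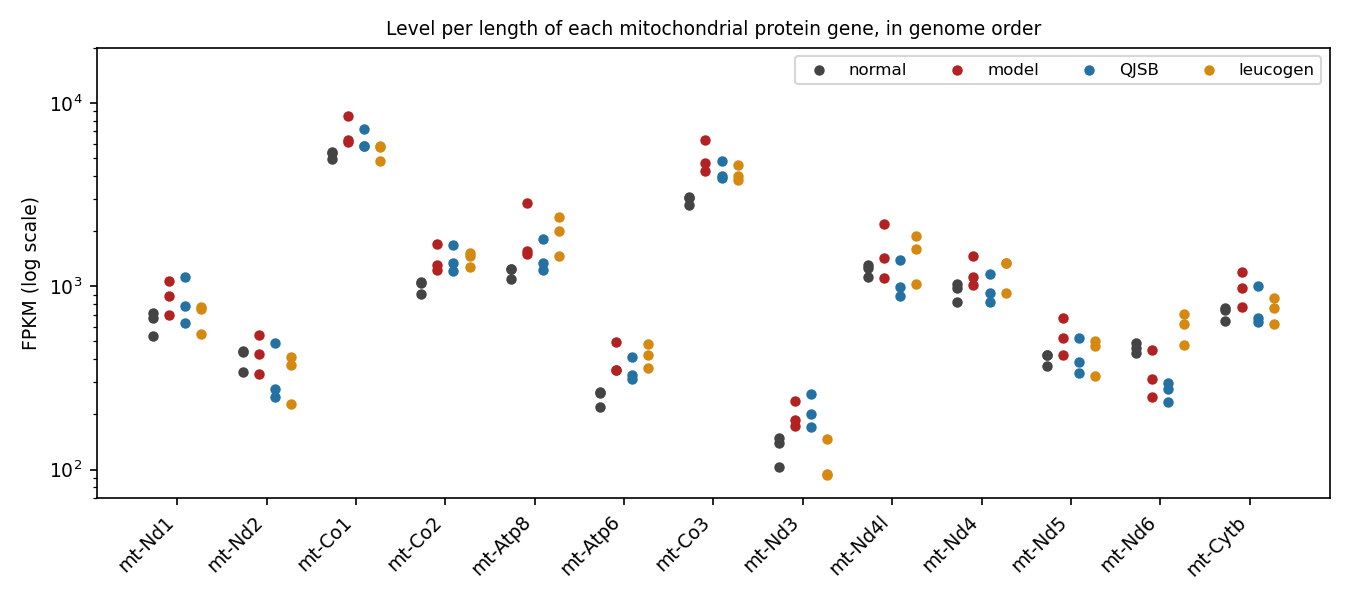
FPKM, on a log scale, of each of the 13 mitochondrial protein genes in genome order, with 1 point per mouse and the 4 groups in colour. mt-Co1 and mt-Co3 are highest and mt-Nd3 lowest in every group, and the mt-Nd6 points of model and QJSB lie below those of leucogen.

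The mitochondrial share of the RNA was small in all libraries and was higher after cyclophosphamide without a drug than in normal marrow. The 13 genes held 1.48%, 1.67% and 1.65% of all counts in the normal mice, 2.03%, 2.73% and 1.87% in model, 2.26%, 1.75% and 1.75% in QJSB, and 2.03%, 1.58% and 1.94% in leucogen. The model and the QJSB libraries all lay above the 3 normal ones, while the leucogen libraries overlapped with every other group. Taken as a share of summed FPKM, the QJSB and normal libraries overlapped, and with the 100 nuclear genes of highest mean count left out of the total, the leucogen libraries lay above the normal ones. Group means were 1.60% ± 0.10 in normal, 2.21% ± 0.46 in model, 1.92% ± 0.30 in QJSB and 1.85% ± 0.24 in leucogen (SD, n = 3). The means of model and normal differed by 0.614 percentage points, QJSB and normal by 0.320, and leucogen and normal by 0.247. The QJSB mean lay 0.294 points and the leucogen mean 0.367 points under that of model, with overlapping libraries in both cases. No test was made on this sum over the members. Single libraries weighed on it: without model 2, the highest library, the difference between model and normal was 0.354, QJSB differed from model by -0.0348 and leucogen from model by -0.108. Without QJSB 1 the difference from normal was 0.148 and from model -0.466, without leucogen 1 leucogen differed from normal by 0.157, and without leucogen 2 it differed from normal by 0.382 and from model by -0.232.

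Most of this share was RNA of complex IV. Its 3 genes held 1.11% ± 0.05 of all counts in normal, 1.57% ± 0.31 in model, 1.40% ± 0.18 in QJSB and 1.27% ± 0.12 in leucogen. The 7 genes of complex I held 0.372% ± 0.041 in normal, 0.464% ± 0.107 in model, 0.378% ± 0.088 in QJSB and 0.425% ± 0.091 in leucogen. The 2 genes of complex V, the ATP synthase, held 0.0414% ± 0.0035 in normal, 0.0671% ± 0.0213 in model, 0.0537% ± 0.0101 in QJSB and 0.0684% ± 0.0138 in leucogen. mt-Cytb, the 1 gene of complex III, held 0.0817% ± 0.0069 in normal, 0.112% ± 0.024 in model, 0.0883% ± 0.0234 in QJSB and 0.0859% ± 0.0138 in leucogen. All of these are mean ± SD over 3 mice. Among the mitochondrial counts alone, mt-Co1 took 50.4% ± 1.2 in normal, 48.7% ± 1.4 in model, 50.8% ± 1.5 in QJSB and 45.9% ± 1.5 in leucogen, and the other 12 genes shared the rest.

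Against the sum of the 12 heavy-strand genes, the light-strand gene was lower in model and QJSB than in normal and higher in leucogen. mt-Nd6, a membrane subunit of complex I, had 1.53, 1.46 and 1.56 counts per 100 counts of the 12 heavy-strand genes in the normal mice. It had 0.798, 0.865 and 0.690 in model, 0.685, 0.700 and 0.826 in QJSB, and 1.62, 1.60 and 1.92 in leucogen. Every model and every QJSB library lay below every normal library, every leucogen library lay above every normal library, and model and QJSB overlapped. The same order held against single neighbours. Per base, mt-Nd6 stood at 1.14 ± 0.04 of mt-Nd5, the gene it meets tail to tail, in normal, at 0.619 ± 0.047 in model, 0.661 ± 0.081 in QJSB and 1.39 ± 0.08 in leucogen (SD, n = 3). Against mt-Cytb, its neighbour on the other side, it stood at 0.646 ± 0.032 in normal, 0.340 ± 0.033 in model, 0.359 ± 0.069 in QJSB and 0.803 ± 0.110 in leucogen. These ratios do not depend on how libraries are scaled to each other. They are descriptions without a test, and they show unequal change within the mitochondrial RNA, not which strand changed. In leucogen against normal mt-Nd6 lay within the range of the 12 genes. Its log2 fold change of 0.45 was under those of mt-Atp6 (0.81), mt-Atp8 (0.76), mt-Co2 (0.56) and mt-Co3 (0.55). It was above those of the rest, among them mt-Co1 (0.13), which weighs most in the sum.

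**Figure D3:**
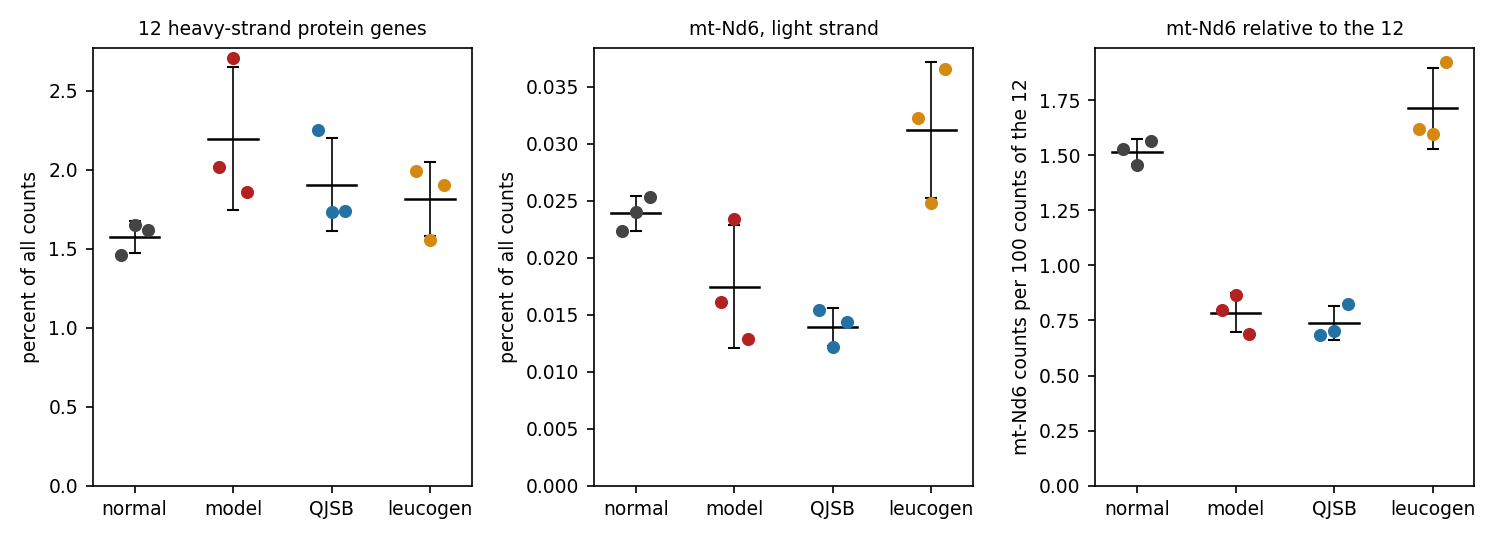
Percent of all counts held by the 12 heavy-strand protein genes (left), by mt-Nd6 (centre), and mt-Nd6 counts per 100 counts of the 12 (right). Points are mice, lines and bars are the group mean ± SD (n = 3). In the right panel model and QJSB lie between 0.685 and 0.865 and normal and leucogen between 1.46 and 1.92.

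Other abundant RNAs also set model and QJSB apart from normal and leucogen. Gm26917 and Gm42418, noncoding gene models at which ribosomal RNA reads can be counted, together held 17568 to 23486 scaled CPM in normal and 13630 to 18466 in leucogen, against 30479 to 51970 in model and 44460 to 48386 in QJSB. Malat1, an abundant nuclear noncoding RNA, took 1.82% to 1.91% of all counts in normal and 1.39% to 1.72% in leucogen, against 0.868% to 1.10% in model and 0.732% to 0.894% in QJSB. In leucogen, Malat1 lay below every normal library, and the sum of the other 2 overlapped with normal. The part of what these measures reflect in the mt-Nd6 result was not tested. The libraries were strand-specific, but whether reads were counted by strand is not given in the sources used here, and without it RNA of mt-Nd6 and RNA antisense to it cannot be told apart.

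After cyclophosphamide, mt-Co3 and mt-Atp6 rose against normal marrow, and the other 11 members, mt-Nd6 among them, did not pass the test. The comparison of model with normal asks what cyclophosphamide did to the marrow. mt-Co3, a core subunit of cytochrome c oxidase, was at 2222, 2454 and 2392 scaled CPM in the normal mice and at 3285, 4652 and 3240 in the model mice. mt-Atp6 was at 154, 185 and 181 in normal and at 211, 320 and 232 in model. For both genes the groups did not overlap. Relative to normal, mt-Co3 was higher by 0.67 ± 0.18 on the log2 scale (SE; adjusted p = 0.0178) and mt-Atp6 by 0.56 ± 0.17 (adjusted p = 0.0317), by edgeR's quasi-likelihood test under Benjamini-Hochberg adjustment over all 14752 genes tested.

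These 2 of 13 members, both higher, stand against a background in which 41.7% of all genes tested were called in either direction (19.7% higher and 21.9% lower). The median log2 fold change was 0.33 over the members and 0.02 over all genes, and 0.17 over the members without model 2. mt-Co1 was at 7888, 8473 and 8290 scaled CPM in normal and at 8632, 12380 and 9201 in model. mt-Co2, which receives electrons from cytochrome c, was at 641, 728 and 725 in normal and 750, 1100 and 873 in model. mt-Atp8 was at 230, 260 and 258 in normal and at 281, 543 and 297 in model. For these 3 genes, and for mt-Nd3, the model libraries lay above the normal ones without overlap, but their adjusted p-values were 0.228, 0.0928, 0.0903 and 0.0626 in the same edgeR test. In all, 7 members did not overlap, 6 higher and mt-Nd6 lower, where 55.4% of all genes tested did not overlap (27.1% higher and 28.2% lower).

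mt-Nd6 was at 229, 245 and 256 scaled CPM in normal and at 143, 221 and 126 in model. All model libraries were below all normal libraries, with model 2 close to them. The log2 fold change was -0.57 ± 0.21 (SE) and missed the threshold, with an adjusted p of 0.0526 by edgeR's quasi-likelihood test under Benjamini-Hochberg adjustment. Without model 2 it was -0.84 (adjusted p = 0.00196), and DESeq2 on all 6 libraries gave an adjusted p of 0.0312. mt-Nd2, another membrane subunit of complex I, was the only other member with a value below 0, at -0.03 ± 0.19 (adjusted p = 0.914 in the edgeR test), and it kept that sign in 12 of 18 alternatives, being above 0 with total counts in place of TMM. Without model 1, 4 members were called, mt-Co2 and mt-Atp8 being added, beside 5965 of 15005 genes. With any 1 normal library left out, 0 members were called and mt-Co3 reached adjusted p-values of 0.0827 (without normal 1), 0.0577 (without normal 2) and 0.0555 (without normal 3). Over all genes 4366 of 15132, 4274 of 15074 and 4530 of 15080 were called in these 3 fits. With total counts in place of TMM the median of all genes rose from 0.024 to 0.145, 3719 of 6415 calls were higher in place of 2913 of 6149, and 5 members were called.

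**Figure D4:**
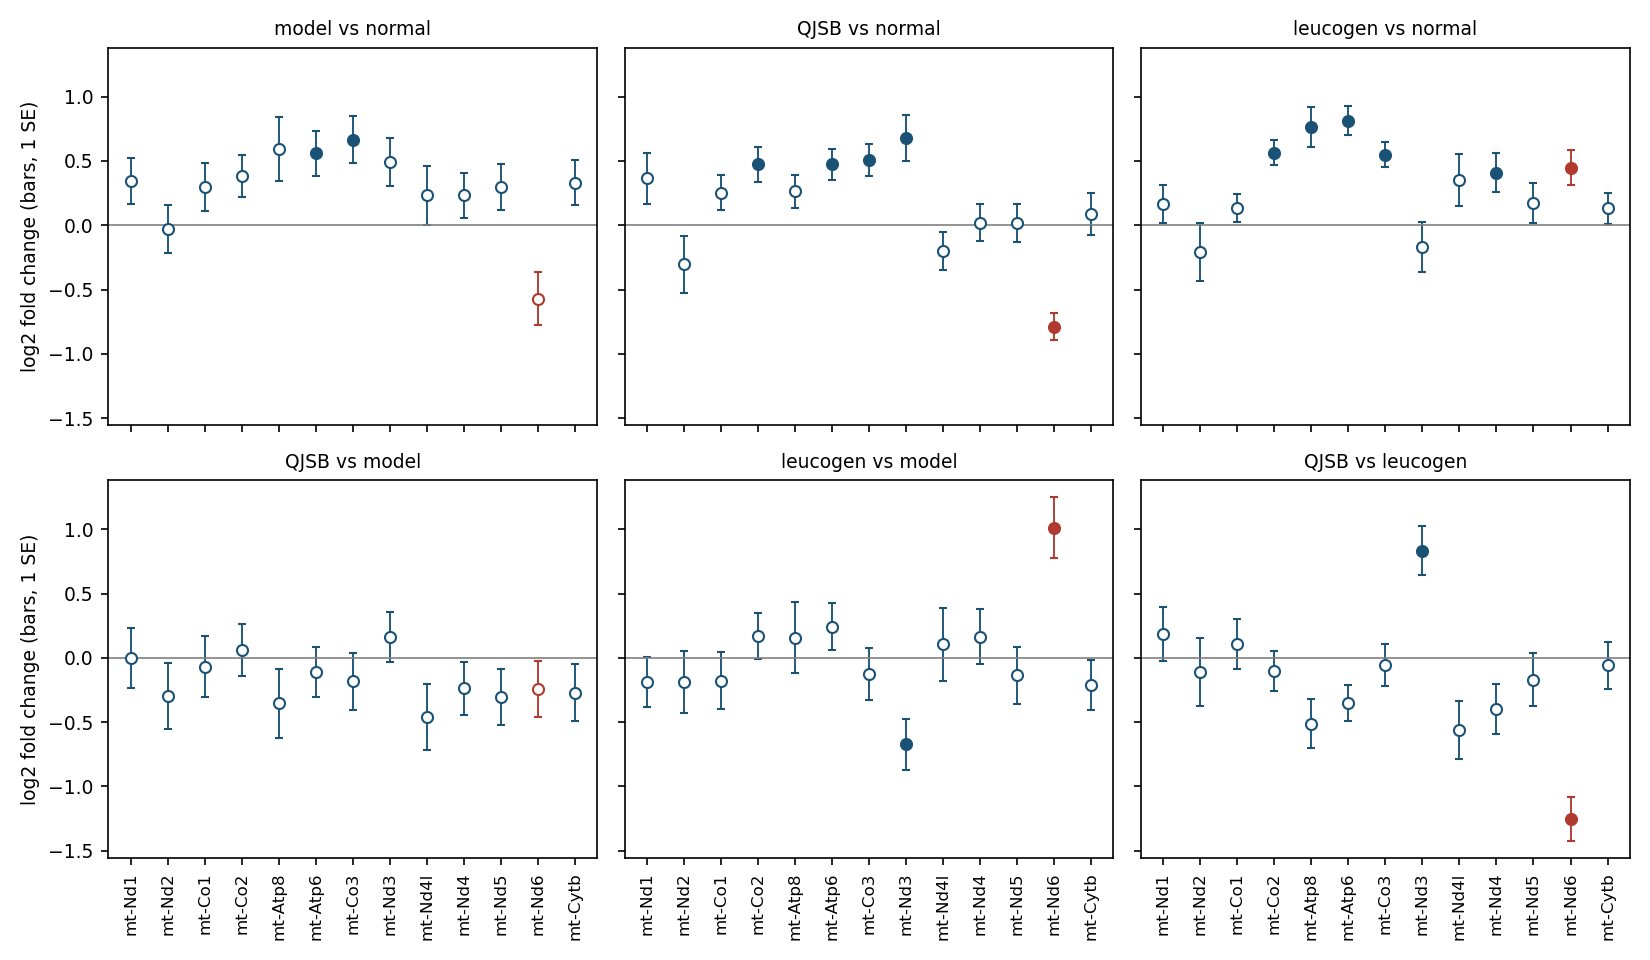
Log2 fold change of each member in the 6 comparisons, with bars of 1 SE, from edgeR. Filled points passed an adjusted p under 0.05 over all genes, and red marks mt-Nd6, the light-strand gene. mt-Nd6 is at -0.57 in model against normal, -0.79 in QJSB against normal and 1.01 in leucogen against model.

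QJSB against model asks what the granule added to the same cyclophosphamide, and no member passed the test. The members' log2 fold changes ran from -0.46 for mt-Nd4l, a small membrane subunit of complex I, to 0.16 for mt-Nd3, with a median of -0.24 against -0.02 over all genes. Without model 2 that median was 0.02, with 8 of 13 members above 0 in place of 2. mt-Nd4l was at 375, 608 and 321 scaled CPM in model and at 381, 281 and 299 in QJSB, and mt-Nd3 was at 57.3, 78.0 and 58.5 in model and at 82.9, 75.3 and 60.9 in QJSB. The groups overlapped for all 13 members, where 10% of all genes tested did not overlap (4.09% higher and 5.91% lower). mt-Nd6 was at 143, 221 and 126 in model and at 142, 130 and 146 in QJSB, a log2 difference of -0.24 ± 0.22 (SE). The smallest adjusted p of a member was 0.767 by edgeR's quasi-likelihood test under Benjamini-Hochberg adjustment. This comparison called 0 of 14486 genes (0% of genes tested), 0 members reached an unadjusted p under 0.05 where 4.99% of all genes did, and 0 members were called by DESeq2, which called 8 genes in all, or by edgeR when the replicate number was a block, which called 18 genes in all. The SEs of the members were 0.19 to 0.27. The smallest adjusted p over all genes tested was also 0.767 in this edgeR test. Differences well above these SEs could therefore go uncalled with 3 mice each. The lack of a call does not show that the members were unchanged.

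Leucogen against model gave a different picture, in which mt-Nd6 rose and mt-Nd3 fell while the other 11 members did not pass the test. mt-Nd6 was at 324, 266 and 392 scaled CPM in leucogen, above all 3 model libraries (126 to 221). The difference was 1.01 ± 0.24 on the log2 scale, or 2.02-fold, with an adjusted p of 0.0159 by edgeR's quasi-likelihood test under Benjamini-Hochberg adjustment. mt-Nd3, a small subunit of complex I, was at 51.0, 34.7 and 35.4 in leucogen, below all 3 model libraries (57.3 to 78.0). It fell by 0.67 on the log2 scale (SE 0.20, adjusted p = 0.0353 in the same edgeR test). mt-Nd3 is the member with the fewest counts. These 2 calls in 13 genes, which were also the only 2 members whose groups did not overlap, stand beside 27.1% called (13.8% higher and 13.3% lower) and 46% not overlapping (22.4% higher and 23.6% lower) among all 14184 genes tested. The median over the members was -0.13, against -0.05 over all genes, and it turned to 0.10 without model 2 and to 0.03 without leucogen 2.

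The mt-Nd6 call was lost without leucogen 1 (adjusted p = 0.0504) and without leucogen 3 (adjusted p = 0.0692), with log2 fold changes of 1.03 and 0.86 in edgeR. The mt-Nd3 call was lost without leucogen 2, without leucogen 3 or without any 1 of the model libraries, with adjusted p-values from 0.0532 to 0.142 in edgeR's test. With total counts in place of TMM both calls were kept, the median of all genes moved from -0.053 to -0.223, and 1397 of 4507 calls were higher in place of 1955 of 3841.

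Set against normal marrow, 5 members were called in QJSB, 4 higher and mt-Nd6 lower, where 45.3% of 14817 genes tested were called (22.1% higher and 23.2% lower). mt-Nd6 was at 142, 130 and 146 scaled CPM in QJSB and at 229, 245 and 256 in normal, with no overlap. It fell by 0.79 on the log2 scale (SE 0.11, adjusted p = 0.000861 by edgeR's quasi-likelihood test under Benjamini-Hochberg adjustment), or to 0.579 of the normal level, and this call was kept in all 18 alternatives, with adjusted p-values up to 0.00703. mt-Nd3 was at 36.8, 52.8 and 48.8 in normal and at 82.9, 75.3 and 60.9 in QJSB, a rise of 0.68 ± 0.18 (adjusted p = 0.0170). mt-Co3 was at 3483, 3293 and 3182 in QJSB, a rise of 0.51 ± 0.13 (adjusted p = 0.0138). mt-Atp6 was at 259, 229 and 228 (0.47 ± 0.12, adjusted p = 0.0144) and mt-Co2 at 1053, 981 and 846 (0.47 ± 0.13, adjusted p = 0.0224), all in the edgeR test.

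For 7 members the QJSB and normal libraries did not overlap, 6 higher and mt-Nd6 lower, against 58.3% of all genes (28.9% higher and 29.4% lower). The member with the second lowest value was mt-Nd2, at 363, 464 and 464 in normal and 468, 276 and 291 in QJSB, and its groups overlapped. The rises were less stable than the fall of mt-Nd6: without normal 1 only mt-Nd6 was called, and without normal 2 or normal 3 the calls of mt-Co2 and mt-Co3 were lost, leaving 3. Over all genes 4835 of 15280 were called without normal 1, 4734 of 15270 without normal 2 and 5157 of 15222 without normal 3. Without QJSB 1, 7 members were called, among them mt-Nd2 and mt-Nd4l, both lower, beside 7968 of 14991 genes. The median log2 fold change was 0.26 over the members and 0.02 over all genes, and 0.14 over the members without QJSB 1.

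In leucogen against normal 6 of 13 members were called, all of them higher, beside 52.3% of 14637 genes tested (25.7% higher and 26.6% lower). Both genes of the ATP synthase were among them. mt-Atp6 was at 331, 261 and 308 scaled CPM in leucogen against 154 to 185 in normal, a rise of 0.81 ± 0.12 on the log2 scale (adjusted p = 0.000228), and mt-Atp8 was at 488, 318 and 440 against 230 to 260 (0.76 ± 0.15, adjusted p = 0.00325). mt-Co2 was at 1045, 931 and 1071 (0.56 ± 0.10, adjusted p = 0.000839) and mt-Co3 at 3632, 3196 and 3352 (0.55 ± 0.10, adjusted p = 0.00107). These 4 genes did not overlap with normal and kept their calls in all 18 alternatives. All values are from edgeR's quasi-likelihood test under Benjamini-Hochberg adjustment.

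mt-Nd6 was higher in leucogen than in normal by 0.45 ± 0.13 (adjusted p = 0.0190 in the edgeR test), the opposite direction to model and QJSB, and its libraries of 266 to 392 lay above the normal libraries of 229 to 256. This call was lost when any 1 of normal 1, normal 2, leucogen 1 or leucogen 3 was left out (adjusted p from 0.0523 to 0.0720), in the fit of all 12 libraries (adjusted p = 0.0998) and in limma (adjusted p = 0.0844). mt-Nd4, a core membrane subunit of complex I, was at 1851, 1352 and 1975 in leucogen and at 1158, 1442 and 1367 in normal, so that its groups overlapped. Its rise of 0.41 ± 0.15 (adjusted p = 0.0478 in edgeR) was called in 4 of 18 alternatives only, and was lost without any 1 normal library, leucogen 1 or leucogen 3. Without leucogen 2, 8 members were called, mt-Nd5 and mt-Nd4l being added, beside 7507 of 15027 genes. The lowest value was that of mt-Nd2, at 430, 253 and 416 in leucogen, with -0.21 ± 0.22 (adjusted p = 0.475 in edgeR). In this comparison 5 members did not overlap, all higher, beside 61.9% of all genes (30.5% higher and 31.4% lower), and the median was 0.35 over the members and -0.01 over all genes. Over the members it was 0.19 without leucogen 1 and 0.54 without leucogen 2.

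The 2 drug groups differed from each other in mt-Nd6 and mt-Nd3, in opposite directions. mt-Nd6 was at 142, 130 and 146 scaled CPM in QJSB and at 324, 266 and 392 in leucogen, a log2 difference of -1.25 ± 0.17 (SE, adjusted p = 0.00317 by edgeR's quasi-likelihood test under Benjamini-Hochberg adjustment), so that QJSB stood at 0.420 of the leucogen level. This call was kept in all 18 alternatives. mt-Nd3 was at 82.9, 75.3 and 60.9 in QJSB and at 51.0, 34.7 and 35.4 in leucogen, a difference of 0.83 ± 0.19 (adjusted p = 0.0135 in the edgeR test), and the groups did not overlap. Of the 13 members 2 were called, where 29.3% of 14266 genes tested were called (15.5% higher and 13.8% lower), and 3 did not overlap (mt-Nd6, mt-Nd3 and mt-Atp6) beside 48.7% of all genes (24.9% higher and 23.9% lower). The median was -0.11 over the members and 0.03 over all genes. Over the members it ranged from -0.32 (without leucogen 2) and -0.30 (without QJSB 1) to -0.03 (without QJSB 3), with -0.06 without QJSB 2 and -0.05 without leucogen 3, and total counts gave -0.01.

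For these groups same-numbered libraries deviated together, and when the replicate number was a block 4 members were called in place of 2, mt-Atp8 and mt-Nd4l being added, both lower in QJSB. The block called 4486 of 14266 genes in all, in place of 4183. The mt-Nd3 call was lost without leucogen 2 (adjusted p = 0.0515 in edgeR) and without leucogen 3 (adjusted p = 0.0720 in edgeR). Without leucogen 2 or without QJSB 1 mt-Atp8 was called as well, with mt-Nd4l in the first case and mt-Atp6 in the second. Over all genes 3012 of 14776 were called without leucogen 2 and 4768 of 14414 without QJSB 1. The comparisons with model share the model libraries, and those with normal share the normal libraries, so that their values are not independent of each other. The study's own cutoff, over 1.5-fold with an unadjusted p under 0.05, was applied here to the edgeR values, where the study used DESeq2. By it the members called were 2 in model against normal (38.4% of all genes), 0 in QJSB against model (3.08%), 2 in leucogen against model (29.6%), 2 in QJSB against normal (41.6%), 2 in leucogen against normal (39.4%) and 2 in QJSB against leucogen (30.6%).

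The remaining members passed the test in none of the 6 comparisons. mt-Nd1 was at 525, 700 and 652 scaled CPM in normal, 753, 964 and 655 in model, 984, 798 and 614 in QJSB, and 737, 560 and 776 in leucogen. mt-Nd2 was at 393, 531 and 336 in model, beside the values given above for the other groups. mt-Co1 was at 10241, 9715 and 9178 in QJSB and at 9034, 7990 and 9585 in leucogen. The QJSB libraries of mt-Co1 lay above the normal ones, and those of leucogen overlapped with them.
mt-Nd4l was at 341, 397 and 377 in normal and at 559, 326 and 511 in leucogen. mt-Nd5, the largest of the mitochondrial proteins, was at 686, 781 and 782 in normal, 849, 1152 and 748 in model, 878, 657 and 716 in QJSB, and 868, 634 and 988 in leucogen. mt-Cytb was at 758, 885 and 856 in normal, 989, 1286 and 858 in model, 1061, 820 and 748 in QJSB, and 995, 765 and 933 in leucogen. In each of these 3 genes every group overlapped with at least 1 other group, and model 2 was the highest model library.
Of the called genes, mt-Nd4 was at 1368, 1909 and 1368 in model and 1478, 1218 and 1288 in QJSB, and mt-Atp8 was at 342, 268 and 278 in QJSB.

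Among the heavy-strand genes, which are cut from the same long RNA, 2 of the 4 ratios computed separated normal from all 3 treated groups. Per base, mt-Co3 stood at 0.565 ± 0.009 of mt-Co1 in normal, 0.728 ± 0.030 in model, 0.674 ± 0.008 in QJSB and 0.756 ± 0.058 in leucogen (SD, n = 3), and no library of the 3 cyclophosphamide groups reached as low as the normal ones. mt-Nd2 stood at 0.635 ± 0.022 of mt-Nd1 in normal, 0.487 ± 0.018 in model, 0.398 ± 0.068 in QJSB and 0.483 ± 0.061 in leucogen, with every treated library below the normal ones. In the pairs of overlapping genes the model and leucogen libraries overlapped with normal, while the QJSB libraries lay below the normal ones. They gave mt-Atp8 at 4.81 ± 0.15 of mt-Atp6 in normal, 4.79 ± 0.76 in model, 4.13 ± 0.26 in QJSB and 4.59 ± 0.45 in leucogen. mt-Nd4l stood at 1.31 ± 0.05 of mt-Nd4 in normal, 1.28 ± 0.19 in model, 1.11 ± 0.07 in QJSB and 1.24 ± 0.15 in leucogen. Both pairs are translated from shared messenger RNAs, and some of their reads lie in both genes of a pair. mt-Co3, mt-Atp6, mt-Nd4l and parts of mt-Co1 and mt-Nd4 also share sequence with nuclear copies. The level of their ratios thus depends on how shared reads were counted. None of these ratios was tested.

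The nuclear genes that copy, transcribe, process and translate the mitochondrial genome were followed through a list of 78 genes, of which 76 were in the table and 75 were tested. In model against normal 26 of them were higher and 8 lower, beside 19.7% of all genes higher and 21.9% lower. By role, the 21 tested genes of RNA processing had 9 higher and 0 lower, the 14 of DNA replication 7 and 4, the 13 translation factors 5 and 0, the 10 transcription genes 2 and 2, the 11 tRNA modification genes 2 and 1, and the 6 regulators of mitochondrial biogenesis 1 and 1. The largest rises were those of Trmt61b, a methyltransferase of mitochondrial RNA (1.06 ± 0.27, adjusted p = 0.0135), Top1mt, the mitochondrial topoisomerase (1.04 ± 0.28, adjusted p = 0.0167), and Pus1, a pseudouridine synthase (1.04 ± 0.22, adjusted p = 0.00629), all in edgeR. The largest falls were those of Rrm2b, a p53-induced subunit of ribonucleotide reductase that supplies nucleotides for mitochondrial DNA (-1.81 ± 0.13, adjusted p = 3.7e-05), Mrm1, an rRNA methyltransferase (-1.28 ± 0.18, adjusted p = 0.000755), and Mterf2, a member of the mitochondrial transcription terminator family (-1.26 ± 0.21, adjusted p = 0.00167), in the same test. Without a normal library the count of 34 called genes dropped to 16 (normal 1), 17 (normal 2) or 20 (normal 3). Calls over all genes dropped as well, from 6149 of 14752 to 4366 of 15132, 4274 of 15074 and 4530 of 15080.

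The polymerase and its partners moved differently between the groups. Polrmt was at 16.2, 13.6 and 15.6 scaled CPM in normal, 19.2, 13.6 and 22.4 in model, 19.7, 14.2 and 14.4 in QJSB and 8.74, 9.21 and 4.70 in leucogen. The leucogen libraries lay below all others. Polrmt fell in leucogen by 1.27 against model (SE 0.29, adjusted p = 0.0136 in edgeR) and by 0.97 against normal (SE 0.23, adjusted p = 0.00564 in edgeR), in the group where mt-Nd6 was highest. Tfam was at 46.2, 53.9 and 53.0 in normal, 40.3, 40.5 and 27.3 in model, 28.5, 27.2 and 24.0 in QJSB and 26.2, 26.2 and 24.7 in leucogen. All treated libraries lay below the normal ones, and Tfam fell by 0.93 in QJSB against normal (SE 0.13, adjusted p = 0.00102) and by 0.97 in leucogen against normal (SE 0.10, adjusted p = 3.69e-05), while model against normal was at -0.50 ± 0.18 (adjusted p = 0.0526), in edgeR.

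Tefm, the elongation factor of mitochondrial transcription, was at 3.70, 4.19 and 3.79 in normal, 6.70, 7.45 and 6.18 in model, 5.59, 4.34 and 3.84 in QJSB and 4.29, 4.13 and 4.13 in leucogen. It rose in model against normal by 0.80 ± 0.21 (adjusted p = 0.0157 in edgeR) and fell by 0.69 in leucogen against model (SE 0.23, adjusted p = 0.0494 in edgeR). Twnk (listed as Peo1), the helicase of mitochondrial DNA replication, rose in model against normal by 0.57 ± 0.15 (adjusted p = 0.0171) and fell in leucogen against model by 0.92 (SE 0.19, adjusted p = 0.0106), in edgeR. Lrpprc, which stabilises heavy-strand messenger RNAs, was at 107, 103 and 106 in normal and at 70.5, 65.0 and 66.2 in leucogen. It fell in leucogen by 0.74 against model (SE 0.14, adjusted p = 0.0072) and by 0.62 against normal (SE 0.09, adjusted p = 0.000198), in edgeR, and had log2 values of 0.11 in model and -0.02 in QJSB against normal that did not pass the test. Polg, the polymerase of mitochondrial DNA, rose in leucogen by 0.49 ± 0.13 against model (adjusted p = 0.0261) and by 0.56 ± 0.10 against normal (adjusted p = 0.000906), in edgeR.

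**Figure D5:**
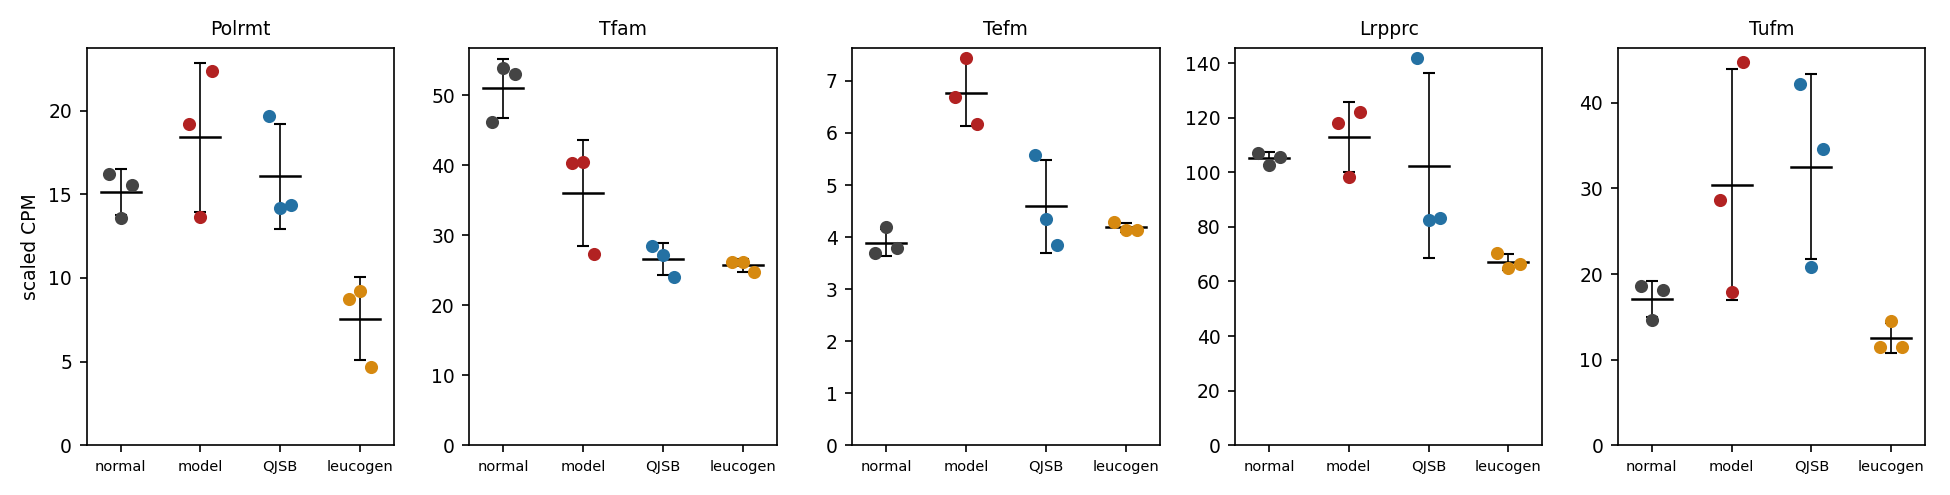
Scaled CPM of 5 nuclear genes of mitochondrial gene expression (Polrmt, Tfam, Tefm, Lrpprc and Tufm), with 1 point per mouse and lines at the group mean ± SD (n = 3). Polrmt lies between 4.70 and 9.21 in leucogen and between 13.6 and 22.4 elsewhere, and Tfam lies between 46.2 and 53.9 in normal and below that in every treated mouse.

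Over the list of 75 tested genes, leucogen against model had 4 higher and 16 lower, beside 13.8% of all genes higher and 13.3% lower, and RNA processing gave 0 higher and 7 lower of 21. Tufm, the elongation factor of mitochondrial translation, fell (-1.28 ± 0.31, adjusted p = 0.0179) and Pus1 fell by 1.00 (SE 0.23, adjusted p = 0.0133), while Mterf1a, a transcription termination factor, rose by 0.76 ± 0.21 (adjusted p = 0.0273), Rrm2b by 0.73 ± 0.16 (adjusted p = 0.0134) and Nrf1, a transcription factor for nuclear genes of respiration, by 0.57 ± 0.13 (adjusted p = 0.0150), in edgeR. Single libraries moved this count of 20 called genes. It was 7 without leucogen 1, 2 without leucogen 3, 10 without model 1 and 13 without model 3. Calls over all genes dropped as well, from 3841 of 14184 to 1728 of 14611, 1239 of 14680, 2419 of 14273 and 3047 of 14475 in the same order. QJSB against model had 0 of 75 called, beside 0% of all genes. Against normal, QJSB had 15 higher and 12 lower of 75, beside 22.1% of all genes higher and 23.2% lower. Of the 10 transcription genes 6 were lower and 0 higher there, and of the 13 translation factors 6 were higher and 0 lower. Leucogen against normal had 11 higher and 11 lower of 75, beside 25.7% and 26.6% of all genes. In QJSB, Top1mt rose by 1.03 ± 0.30 (adjusted p = 0.0251), Ppargc1b, a coactivator of mitochondrial biogenesis, by 0.96 ± 0.32 (adjusted p = 0.0437) and Tufm by 0.95 ± 0.26 (adjusted p = 0.0205), in edgeR. Rrm2b (-1.99 ± 0.16, adjusted p = 7.79e-05), Primpol, a primase and polymerase (-1.53 ± 0.12, adjusted p = 7.07e-05), and Mrm1 (-1.44 ± 0.24, adjusted p = 0.00236) fell, in edgeR. In leucogen, Ppargc1b rose by 0.78 ± 0.28 (adjusted p = 0.0392), Mtrf1, a release factor of mitochondrial translation, by 0.75 ± 0.17 (adjusted p = 0.00392) and Dna2, a nuclease and helicase, by 0.73 ± 0.08 (adjusted p = 5.24e-05), in edgeR. Mrm1 (-1.48 ± 0.20, adjusted p = 0.000143), Mterf2 (-1.42 ± 0.18, adjusted p = 0.0001) and Tfb1m, a methyltransferase of the small mitochondrial rRNA (-1.17 ± 0.16, adjusted p = 0.000152), fell, in edgeR. In QJSB against leucogen 8 were higher and 10 lower of 75, beside 15.5% and 13.8% of all genes. Tufm was higher in QJSB by 1.36 ± 0.26 (adjusted p = 0.00794), Polrmt by 1.06 ± 0.28 (adjusted p = 0.0219) and Elac2, which cuts tRNA ends, by 0.87 ± 0.21 (adjusted p = 0.0177), in edgeR. Rrm2b was lower, at -0.93 ± 0.19 (adjusted p = 0.00875), as were Mterf1b at -0.71 ± 0.20 (adjusted p = 0.0278) and Ssbp1, the single-strand binding protein of mitochondrial DNA, at -0.70 ± 0.15 (adjusted p = 0.01), in edgeR.

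The nuclear subunits of the complexes to which the members belong gave other counts than the mitochondrial ones in leucogen. Of 68 nuclear subunits of complexes I, III, IV and V, all tested, 22 were higher and 0 lower in model against normal, beside 19.7% and 21.9% of all genes, and 24 higher and 0 lower in QJSB against normal, beside 22.1% and 23.2%. In leucogen against model 0 were higher and 34 lower, beside 13.8% and 13.3% of all genes. In leucogen against normal 6 were higher and 20 lower, beside 25.7% and 26.6%, and this is the comparison in which 6 mitochondrial members were higher and 0 lower. In QJSB against leucogen 33 were higher and 4 lower, beside 15.5% and 13.8%, and in QJSB against model 0 of 68 were called. Complex III had 7 of its 9 nuclear subunits lower in leucogen against model, with a median log2 fold change of -0.99, while complex I had 16 of 36 lower (median -0.61), complex IV 5 of 11 (median -0.65) and complex V 6 of 12 (median -0.32), beside -0.05 over all genes. mt-Cytb, the mitochondrial subunit of complex III, was at -0.21 ± 0.19 (adjusted p = 0.438 in edgeR) in that comparison. Whether the nuclear and the mitochondrial subunits differed in their change was not tested.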

How the data were processed

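The authors made strand-specific libraries from femoral marrow RNA depleted of rRNA. The authors filtered the reads with Seqtk, which also took out rRNA reads, then aligned them to GRCm38.p4 (mm10) with Hisat2. The counting program, its use of strand and its treatment of reads with more than 1 place are not given in the sources used here. The deposited table gives raw read counts per gene and library. It also gives the FPKM that the authors computed, which equals the count over the annotated gene length and the library total. Columns were assigned to groups by the meaning of their headings and by elimination. They were then checked against the supplement's mean normalized counts, which matched within 1% for 300 of 300 genes of each of 3 lists, and for at most 10 under any other assignment. The number of per-sample columns left unused was 0.

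Counts of all genes were tested with edgeR 4.0.16 (TMM, filterByExpr, robust quasi-likelihood fit) in R 4.3.3 on the 6 libraries of each pair of groups, without covariates. The study's own tool was DESeq2, which is an alternative here. A gene was called at a Benjamini-Hochberg adjusted p under 0.05 over all genes tested. The SE of an edgeR log2 fold change was computed as its absolute value over the square root of the quasi-likelihood F statistic. The study's cutoff (over 1.5-fold with an unadjusted p under 0.05), applied to the edgeR values, was an alternative. The other alternatives were DESeq2 1.42.0, limma 3.58.1 on log2(FPKM + 0.1), other size factors and filters, all 12 libraries in 1 fit, the replicate number as a block, and each library left out in turn. Adding the counts of nuclear copies, and leaving Gm26917, Gm42418 and Malat1 out of the scaling, were chosen after the data had been seen. Scaled CPM used TMM factors of all 12 libraries. Intervals between groups are between mice, 3 per group. The fits were tested on simulated data.

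Replicate numbers are in the labels. Same-numbered libraries were checked for shared deviations from their group means. The correlations were 0.451, 0.135 and 0.102 for QJSB and model and 0.174, 0.157 and 0.11 for QJSB and leucogen. From these values alone the numbers were taken to pair these groups, and not the others. For QJSB and leucogen a library's own number gave its highest correlation in 6 of 6 cases. For QJSB and model it did so in only 2 of 6, as for leucogen and model, so that pairing is weak. Named genes were all members, Polrmt, Tfam, Tefm, Lrpprc, Polg, Twnk and, for the list of nuclear genes of mitochondrial gene expression, the 3 largest rises and falls among called genes with a mean scaled count of at least 50. Tufm, whose values are also plotted, was named by this rule. The planned values for rRNA and tRNA genes could not be given, as these genes were not analysed here. The members and all gene lists were chosen with earlier results of these data known. Sequences were read from GENCODE M21 transcripts and GRCm38, and copies were aligned with Biopython 1.88.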

Additional observations from a re-analysis of the deposited data

How the results depend on the processing

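No result changed its direction past the threshold under any alternative run. With the replicate number as a block, the members called were 4 in model against normal (2 without the block), 0 in QJSB against model, 1 in leucogen against model, 3 in QJSB against normal and 4 in QJSB against leucogen, and 10 nuclear genes of mitochondrial gene expression were called in leucogen against model. In the order of these comparisons the block called 5670 of 14752, 18 of 14486, 2826 of 14184, 5639 of 14817 and 4486 of 14266 genes in all. The block lost the calls of mt-Nd3 in leucogen against model (adjusted p = 0.0632 in edgeR) and of mt-Co2 and mt-Co3 in QJSB against normal. The block was fitted over all genes, but its calls among the nuclear subunits of the complexes were not counted. For the nuclear genes of mitochondrial gene expression they were counted only in model against normal, QJSB against model and leucogen against model. For model, normal and leucogen the pairing of numbers was not borne out (correlations from -0.104 to 0.125), and for QJSB and model it was weak. These blocked values are a hint only. Leaving Gm26917, Gm42418 and Malat1 out of the scaling hardly moved it in model against normal (6149 genes called either way). In leucogen against normal it moved the median of all genes from -0.008 to -0.031. There the call of mt-Nd4 was lost, leaving 5 members. With moves this small the alternative is no test of these RNAs. Total counts in place of TMM gave 5 members in model against normal. The study's cutoff gave 2 members in QJSB against normal, 2 in leucogen against normal, and 4 nuclear genes of the list in QJSB against model. As a share of summed FPKM the differences were 2.61 points for model and normal, -1.41 for QJSB and model, -1.43 for leucogen and model, 1.19 for QJSB and normal and 1.17 for leucogen and normal, since this unit divides by gene length. Without the 100 nuclear genes of highest mean count, leucogen and normal differed by 0.432 points. With 1 library left out the members called ranged from 0 to 4 in model against normal, 0 to 0 in QJSB against model, 0 to 1 in leucogen against model, 1 to 7 in QJSB against normal, 4 to 8 in leucogen against normal and 1 to 4 in QJSB against leucogen. Over all genes the calls ranged from 4274 to 6636, 0 to 3, 1239 to 4589, 4734 to 7968, 6616 to 7507 and 1545 to 4768 in these comparisons. The nuclear genes called ranged from 16 to 40, from 0 to 0 and from 2 to 25 in the first 3 of these. The difference in share ranged from 0.354 to 0.784, -0.466 to -0.0348, -0.537 to -0.108, 0.148 to 0.407, 0.157 to 0.382 and -0.0989 to 0.163 points in the same order of comparisons. Where a value moved, the cause was not tested, beyond the smaller number of mice when a library was left out. The share without mitochondrial rRNA genes gave no value of its own, as those genes were not analysed here.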
